A study of Mus musculus with 20 samples.

Results

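Centromere-near and satellite-like sequence was taken as the peaks that start below 3.5 Mb on chromosomes 1 to 19 of the mm9 build, together with the peaks that start within the 100 kb of chromosome 2 that begin at 98450001. Chosen by position, with earlier results of these data known, these were 15428 of the 4480164 peaks in 10 peak lists, or 0.344%. Of them 15288 lay next to a centromere and 140 in the chromosome 2 interval. Mouse chromosomes carry their centromere at one end. The first peak of any list starts at 2999932, so the centromere-near peaks stand for the first 0.5 Mb of assembled sequence on each autosome. The following 209362 peaks, which start between 3.5 and 10 Mb on the same chromosomes, served as the flank. No genome sequence or repeat annotation of mm9 was used, so satellite content was not measured and the interval on chromosome 2 is called by its position. Beside the 3.5 Mb limit, the last arrested SS pRb peak inside, chr10:3499871-3500099, scored 57.1 and the first outside, chr4:3500375-3500543, scored 65.1.

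The libraries came from chromatin immunoprecipitation and sequencing of mouse embryonic fibroblasts, primary cells of C57BL/6 embryos at E13.5, at passage 4. The cells were either mutant, named SS with the allele not spelled out, or wild type (WT). pRb and H3K27me3 were each assayed in arrested SS, arrested WT, proliferating SS and proliferating WT cells, and Ezh2 in serum-deprived SS and WT cells. Arrest was reached with 0.1% serum for 72 h, although the growth condition of the arrested pRb libraries is given as confluence arrest. pRb was precipitated with several antibodies, H3K27me3 and Ezh2 with a single antibody each. Each combination was sequenced as 1 library, so differences between libraries are descriptions without replicates and without p-values. The input libraries were not analysed here, nor was the cell type checked against marker genes. Intervals cover counting error over peaks only, neighbouring peaks are not independent, and the sequencing depth is unknown. The lists held from 77809 peaks (proliferating WT pRb) to 1184135 peaks (SS Ezh2), which is why most values below are set against the flank of the same list.

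As background, the ends of mouse chromosomes at the centromere consist of long arrays of minor satellite, where the kinetochore forms, followed by major satellite, which forms the pericentric heterochromatin. Assembled chromosomes begin beyond most of these arrays. pRb, the retinoblastoma protein, restrains E2F transcription factors in arrested cells and has been linked to silencing of repeats. Ezh2 is the methyltransferase of Polycomb repressive complex 2, and H3K27me3 is the mark that it sets on silent genes. In the RefSeq gene order of another assembly, GRCm38.p6, the protein-coding genes nearest the start of their chromosomes include Sfi1, which encodes a centrin-binding protein, on chromosome 11, Cdk6, a kinase that phosphorylates pRb, on chromosome 5, and Insr, the insulin receptor, on chromosome 8. Their positions relative to the peaks below were not determined, because the builds differ.

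The strongest pRb peaks of proliferating SS cells lay in the selected sequence. In that list the peak of highest authors' score, a value per peak on a scale that the files do not name, was chr2:98502361-98503182 with a score of 3223. The peak ranked 2 was chr12:3109860-3110198 with a score of 3222. A further peak, chr2:98506336-98507498, shared rank 3 with a peak outside the selected sequence at a score of 3100. These scores were 128 to 133 times the list median of 24.3. Only 5 of the 106472 peaks scored over 400, and 3 of the 5 were members.

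At these 3 places the other 9 lists were empty. Peaks of this list seldom overlapped those of proliferating WT pRb: 2.48% did next to the centromeres and 1.45% in the flank. In proliferating WT cells the nearest pRb peak to chr2:98502361-98503182 was 66402 bp away, and the highest score anywhere in that list was 339. The nearest pRb peaks to it were 10248 bp away in arrested SS and 23590 bp away in arrested WT cells. The nearest Ezh2 peak was 6804 bp away in SS and 9583 bp in WT cells, and the nearest H3K27me3 peak was 6861 bp away, in arrested WT cells. For chr12:3109860-3110198 the nearest peak of the other lists lay between 5201 bp (SS Ezh2) and 14264 bp (proliferating WT H3K27me3) away. The high scores at these places were thus seen in 1 library alone.

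**Figure D1:**
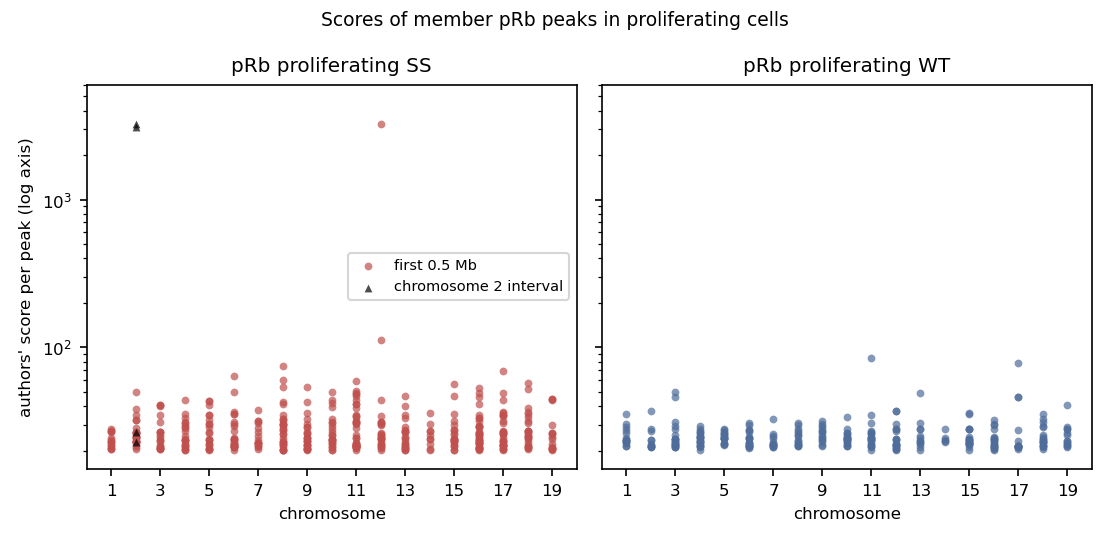
Authors' score (log axis) of every pRb peak in the selected sequence by chromosome, in proliferating SS cells on the left and proliferating WT cells on the right. Circles are peaks of the first 0.5 Mb and triangles peaks of the chromosome 2 interval. The 3 SS points at 3100 and above stand apart from all others, of which the highest score is 112 in SS and 84.6 in WT cells.

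Elsewhere in the chromosome 2 interval the lists were ordinary or sparse. The interval of 100 kb held 19 and 11 pRb peaks in arrested SS and arrested WT cells, 4 and 0 in proliferating SS and proliferating WT cells, and 49 and 40 Ezh2 peaks in SS and WT cells. Arrested SS cells had 2 H3K27me3 peaks there and arrested WT cells 15, with none in either proliferating list. In arrested SS cells pRb covered 4.64% of the interval and 5.72% of the 450 kb on either side. In arrested WT cells the shares were 1.84% inside and 3.03% beside. In proliferating SS cells, where the peaks above lie, pRb covered 2.28% inside and 0.416% beside. Proliferating WT cells had 0 inside and 0.379% beside. Ezh2 covered 4.91% inside against 5.78% beside in SS cells, and 4.76% against 3.95% in WT cells. Arrested WT cells had an H3K27me3 coverage of 2.61% inside and 3.97% beside, and arrested SS cells 0.741% and 0.387%. The proliferating H3K27me3 lists had 2 (SS) and 1 (WT) peaks in the 900 kb beside it.

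The middle of the interval was free of peaks in every list except that of proliferating SS pRb. Arrested SS pRb peaks left 23.5 kb without a peak, at chr2:98489935-98513430, and arrested WT pRb peaks 61.0 kb, at chr2:98465787-98526772. The longest stretch without an Ezh2 peak was 18.5 kb in SS cells, at chr2:98495557-98514036, and 20.6 kb in WT cells, at chr2:98492179-98512765. For arrested WT H3K27me3 it was 23.3 kb, at chr2:98495500-98518826. Both strong proliferating SS pRb peaks fall within all of these stretches. The highest pRb score of the interval in arrested SS cells, 712 at chr2:98460646-98460812, ranked 352 of 650383, and that of arrested WT cells, 228, ranked 27927 of 424588. No pRb peak and no H3K27me3 peak of the interval overlapped a peak of the other genotype, whereas 3 of 49 SS and 4 of 40 WT Ezh2 peaks did. Proliferating WT pRb and both proliferating H3K27me3 lists had no peak there, so these pairs could not overlap. Such overlap was also rare among flank peaks for pRb, at 6.97% in arrested SS, 11.0% in arrested WT and 1.45% in proliferating SS cells. The flank shares were 8.06% and 11.4% for SS and WT Ezh2, and 35.6% and 12.3% for arrested SS and WT H3K27me3.

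Next to the centromeres, pRb peaks were about as dense as in the flank, or slightly denser in proliferating SS cells. Ezh2 ratios lay slightly below 1. H3K27me3 ratios lay below 1 in all 4 lists at these limits, but in arrested WT cells about as little as for Ezh2. In proliferating SS cells pRb had 46.6 peaks per Mb in the first 0.5 Mb and 41.3 in the flank, a ratio of 1.13 (95% interval 1.02 to 1.24). The ratio was 1.04 (0.922 to 1.17) in proliferating WT, 0.980 (0.939 to 1.02) in arrested SS and 0.972 (0.921 to 1.02) in arrested WT cells. For Ezh2 it was 0.952 (0.922 to 0.982) in SS and 0.964 (0.929 to 1.00) in WT cells, from 435 and 312 peaks per Mb next to the centromeres. For H3K27me3 the ratio was 0.729 (0.667 to 0.797) in arrested SS cells, with 54.0 peaks per Mb against 74.1 in the flank. It was 0.956 (0.916 to 0.997) in arrested WT, 0.787 (0.716 to 0.864) in proliferating SS and 0.899 (0.812 to 0.995) in proliferating WT cells. The proliferating WT value turned to 1.06 within the higher-scoring 0.5 of the list and to 1.01 with a limit of 4 Mb, and the proliferating SS pRb interval held 1 without chromosome 11 (1.11, 0.999 to 1.22). The arrested WT H3K27me3 interval held 1 without chromosome 11 (0.970, 0.928 to 1.01) and without chromosome 14 (0.966, 0.925 to 1.01).

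For pRb and Ezh2, covered length gave a higher near-to-flank ratio than peak number did. pRb covered 6.18% of the first 0.5 Mb and 5.60% of the flank in arrested SS cells, and 3.31% and 3.02% in arrested WT cells. In proliferating cells it covered 0.777% and 0.6002% in SS, and 0.522% and 0.449% in WT. Ezh2 covered 5.02% and 4.84% in SS, and 3.30% and 3.15% in WT cells. H3K27me3 covered 3.43% of the first 0.5 Mb and 4.77% of the flank in arrested SS cells, 6.71% and 7.04% in arrested WT, 7.01% and 8.52% in proliferating SS, and 5.96% and 6.79% in proliferating WT cells. Thus the covered share was above the flank in all 4 pRb lists and both Ezh2 lists and below it in all 4 H3K27me3 lists. Without chromosome 11 the proliferating pRb shares were 0.697% against 0.592% in SS and 0.475% against 0.446% in WT cells. The Ezh2 shares were then 4.86% against 4.84% in SS and 3.19% against 3.15% in WT cells.

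**Figure D2:**
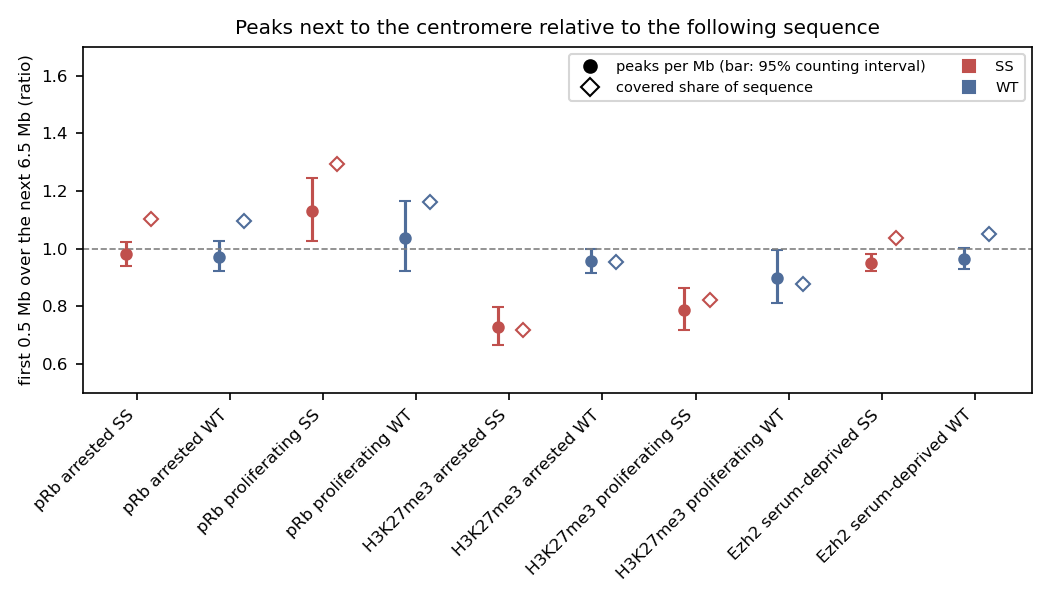
Ratio of the first 0.5 Mb to the next 6.5 Mb of the 19 autosomes for each library, in peaks per Mb (filled circles, bars are 95% counting intervals) and in covered share (open diamonds). H3K27me3 in arrested SS cells is lowest in both measures, at 0.729 and 0.718, and pRb in proliferating SS cells is highest, at 1.13 and 1.29.

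The deviation from the flank was largest close to the assembled start. H3K27me3 covered 2.14% of the first 250 kb and 4.71% of the second 250 kb in arrested SS cells, 4.99% and 9.03% in proliferating SS, and 4.01% and 7.91% in proliferating WT cells. In arrested WT cells it covered 6.69% and 6.73%. In the first 100 kb arrested SS H3K27me3 covered 1.68%, below the lowest of the 65 steps of 100 kb in the flank (2.04%). The other H3K27me3 lists stayed within the flank's range in all 5 steps. pRb went the other way: arrested SS coverage of the first 100 kb was 6.47%, arrested WT 4.06%, proliferating SS 0.910% and proliferating WT 0.656%, each above the highest flank step of its list (6.25%, 3.55%, 0.753% and 0.599%). The proliferating sums include chromosome 11, where pRb covered 7.55% of the first 100 kb in SS and 4.24% in WT cells. Over the other 18 autosomes the median was 0.436% in proliferating SS and 0.455% in proliferating WT cells. The median flank step, all autosomes summed, was 0.610% and 0.446%. In the proliferating lists the excess of the first 100 kb over the highest flank step thus rested on chromosome 11. Their second 100 kb were covered to 0.854% in SS and 0.712% in WT cells. In arrested cells that median was 5.53% in SS and 3.87% in WT, with chromosome 11 at 6.34% and 11.3%. Ezh2 covered 5.55% of the first 100 kb in SS and 3.58% in WT cells, inside a flank range that reached 5.68% and 3.61%.

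**Figure D3:**
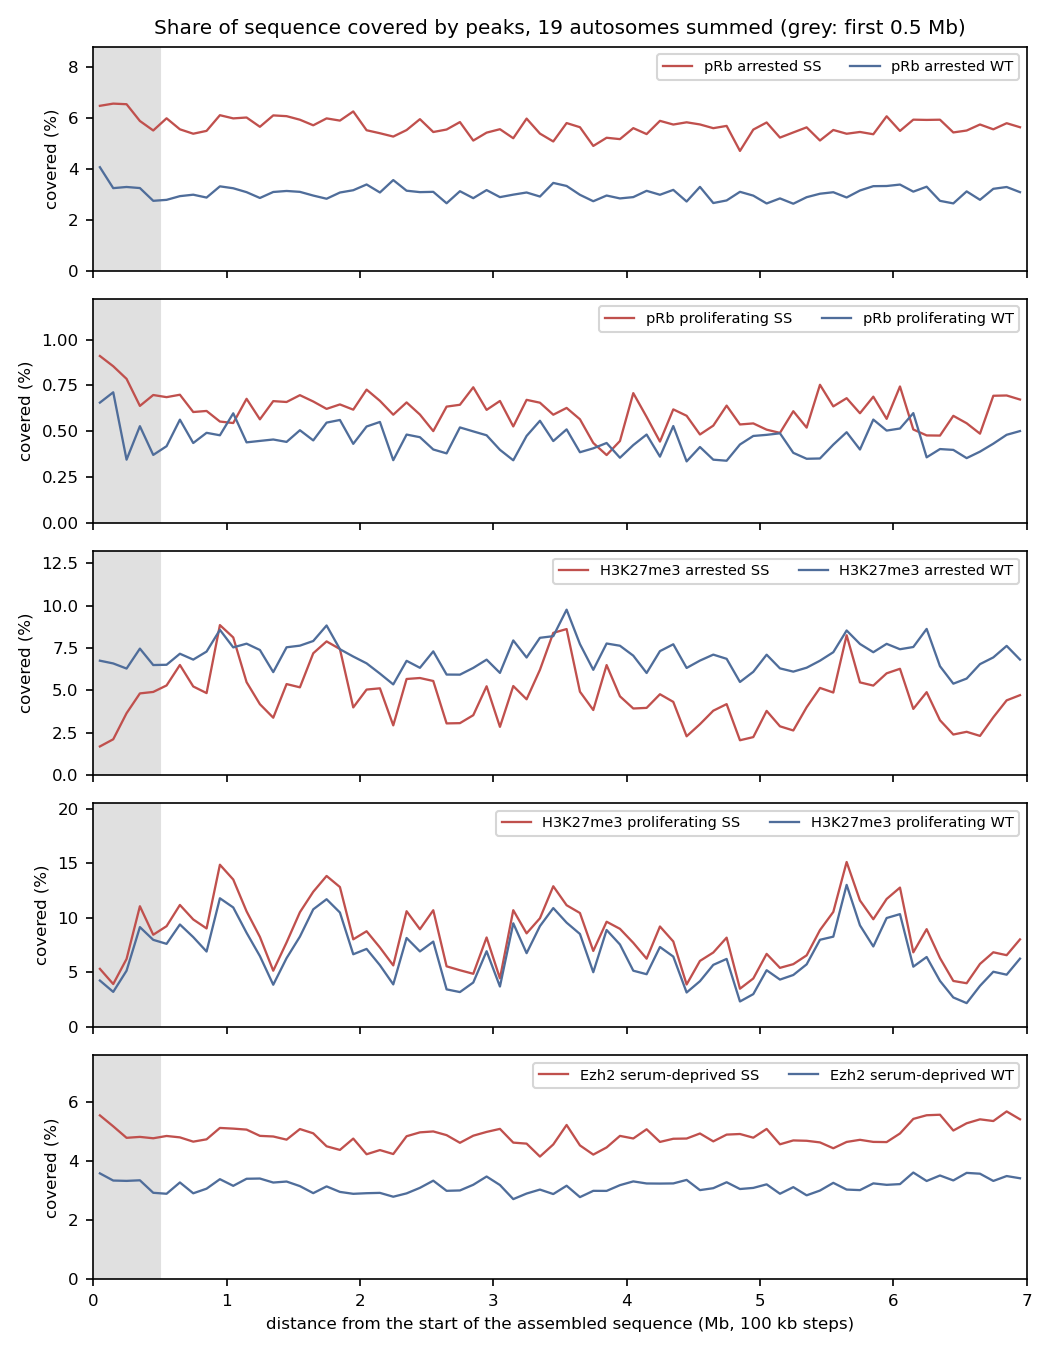
Share of sequence covered by peaks in steps of 100 kb from the start of the assembled sequence, summed over the 19 autosomes, with SS in red and WT in blue. The grey band is the first 0.5 Mb. pRb coverage peaks within the band in all 4 lists, and arrested SS H3K27me3 is lowest at the left edge, at 1.68%. The sums include the first 100 kb of chromosome 11, which proliferating pRb covers to 7.55% in SS and 4.24% in WT cells.

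The first 100 kb of chromosome 11 were the most densely covered of the 95 bins next to the centromeres in 7 of the 10 lists. The exceptions were arrested SS pRb, with chr16:3200001-3300000 at 12.9%, arrested SS H3K27me3, with chr2:3200001-3300000 at 23.0%, and proliferating SS H3K27me3, with chr8:3300001-3400000 at 47.0%. SS Ezh2 peaks covered 22.8% of chr11:3000001-3100000, the 3rd highest of 24020 autosomal bins of 100 kb, and WT Ezh2 peaks 16.9%, the 5th highest. In arrested cells pRb covered 6.34% of it in SS, which ranked 6270, and 11.3% in WT, the 15th highest. In proliferating cells pRb covered 7.55% of it in SS (3rd highest) and 4.24% in WT (6th). On the other 18 autosomes the first 100 kb were covered to at most 9.07% and 5.95% by Ezh2 in SS and WT, 5.50% by pRb in arrested WT, and 2.31% and 1.01% by pRb in proliferating SS and WT cells. Arrested H3K27me3 covered the same bin to 5.13% in SS and 20.4% in WT cells, with ranks of 7946 and 832. Proliferating H3K27me3 covered it to 45.8% in SS and 38.7% in WT cells, with ranks of 1597 and 1750. In arrested SS cells both pRb and H3K27me3 lay inside the range of the other autosomes, which reached 11.1% and 6.53%.

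**Figure D4:**
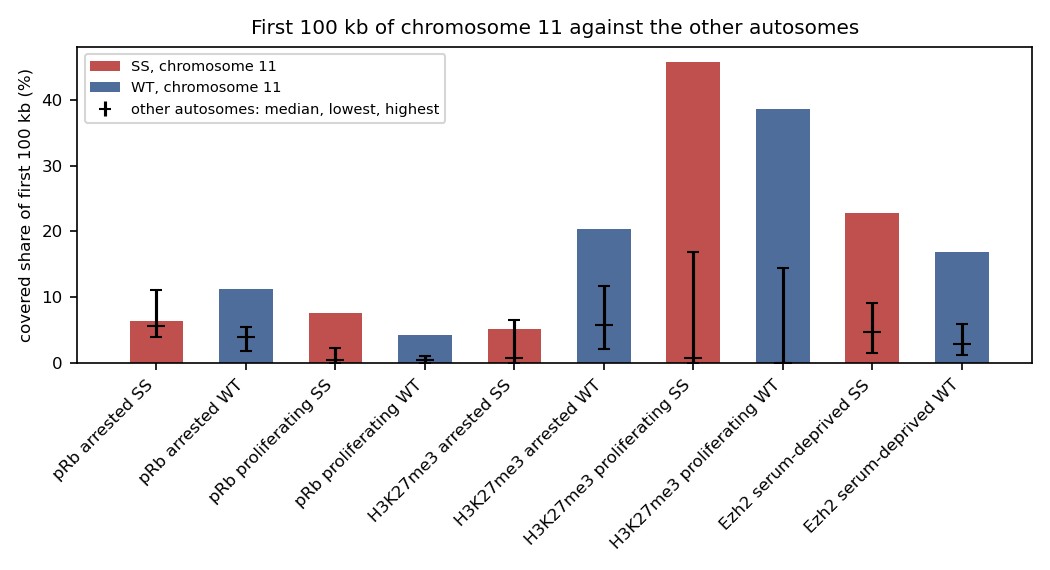
Covered share of the first 100 kb of chromosome 11 in each library (bars, SS red and WT blue), with the median, lowest and highest value of the other 18 autosomes (black). The bar exceeds the range of the other autosomes in 8 libraries; in arrested SS pRb (6.34%) and arrested SS H3K27me3 (5.13%) it lies inside.

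Very dense bins were frequent next to the centromeres for pRb and Ezh2. Of the 95 bins there, 8 in arrested SS, 4 in arrested WT, 7 in proliferating SS and 3 in proliferating WT cells were among the highest 1% of autosomal bins by pRb coverage, a share of 8.42%, 4.21%, 7.37% and 3.16%. Over all bins the share is 0.999% in 3 of these lists and 1.0% in proliferating SS cells by definition, and in the flank it was 0.405%, 0.567%, 0.810% and 0.567%. Ezh2 had 6 such bins in SS and 6 in WT cells (6.32% each), against 0.999% of all bins and 0.405% and 0.567% of the flank. H3K27me3 had 0 of 95 in all 4 lists, against 4 to 7 of the 1234 flank bins. Without chromosome 11 the shares were 8.89%, 3.33%, 5.56% and 2.22% for pRb and 5.56% for both Ezh2 lists. The 34 entries fell on 15 bins, of which 8 recurred. The bin chr4:3100001-3200000 was among them in all 6 pRb and Ezh2 lists. chr11:3000001-3100000 and chr16:3200001-3300000 were among them in 5 lists each.

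Chromosomes differed in coverage next to the centromere in every list. Arrested pRb ranged from 8.50% on chromosome 16 to 2.83% on chromosome 14 in SS, and from 5.33% on chromosome 11 to 0.757% on chromosome 14 in WT cells. Between the same chromosomes 11 and 14, proliferating pRb ranged from 2.23% to 0.302% in SS and from 1.36% to 0.134% in WT cells, and Ezh2 from 7.95% to 0.825% in SS and from 5.44% to 0.487% in WT cells. Proliferating SS H3K27me3 covered 19.4% of the first 0.5 Mb on chromosome 2 and 0.124% on chromosome 3, where the flank had 13.1% and 4.65%. Proliferating WT H3K27me3 ranged from 16.5% on chromosome 2 to 0 on chromosomes 1 and 3. Arrested SS H3K27me3 ranged from 9.62% on chromosome 19 to 0.560% on chromosome 16, where its flank had 6.53%. Arrested WT H3K27me3 ranged from 10.8% on chromosome 19 to 3.35% on chromosome 14. On chromosomes 2, 5, 7, 8, 10 and 13 the first 0.5 Mb were above the flank in all 4 H3K27me3 lists, most of all on chromosomes 7 and 8, with 14.8% against 5.32% and 12.7% against 4.83% in proliferating SS cells. The first 0.5 Mb exceeded the flank on 6 of 19 chromosomes for arrested SS, 8 for arrested WT, 8 for proliferating SS and 7 for proliferating WT H3K27me3. For pRb the numbers were 16, 11, 13 and 13 in the same order, and for Ezh2 10 in SS and 9 in WT cells.

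Chromosome 14 was the least covered of the 19 for pRb in all 4 lists, for Ezh2 in both, and for H3K27me3 in arrested WT cells. Its first 0.5 Mb were covered by pRb to 2.83% in arrested SS, 0.757% in arrested WT, 0.302% in proliferating SS and 0.134% in proliferating WT cells. Ezh2 covered 0.825% of it in SS and 0.487% in WT cells, against 1.97% and 1.31% in its flank, which was also low. On chromosome 9 no list had a peak before 3044007, while on the other autosomes the first peak of any list started at 3002989 or earlier. Leaving out chromosome 14 moved no density ratio beyond its interval.

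**Figure D5:**
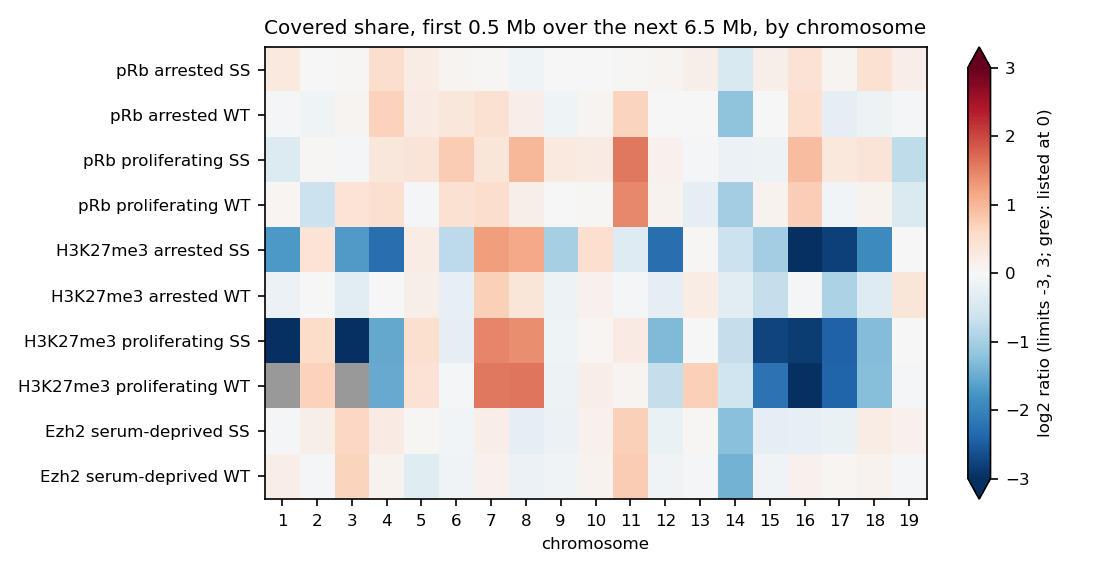
Covered share of the first 0.5 Mb relative to the next 6.5 Mb of the same chromosome (log2 ratio, red higher, blue lower, grey listed at 0) for the 10 libraries and 19 autosomes. H3K27me3 is below its flank in all 4 lists on chromosomes 1, 3, 6, 9, 12 and 14 to 18, and above it on 2, 5, 7, 8, 10 and 13. On chromosomes 1, 3, 7, 8, 16 and 17 the departure is least in arrested WT cells. Chromosome 14 is below its flank in all 10 libraries.

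Merging the members of all lists (gaps up to 200 bp) gave 7564 regions, of which 4398 (58.1%) had a peak in 1 list and 335 (4.43%) in at least 5 lists. In the flank 56.8% of 101215 regions had a peak in 1 list and 4.54% in at least 5. All 10 lists had a peak in 4 member regions (0.0529%) and in 73 flank regions (0.0721%).

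Of the 4 regions shared by all lists, chr11:3090843-3100052 held the longest pRb peaks. Its longest pRb peak measured 3022 bp in arrested SS, 1301 bp in arrested WT, 3539 bp in proliferating SS and 2740 bp in proliferating WT cells. The peak chr11:3097287-3098646 of proliferating WT cells scored 84.6, rank 17 of 77809. The longest proliferating WT peak, of 2740 bp, scored 20.1, rank 77547, where the lowest pRb score is 20. The arrested WT pRb peak scored 40.6, rank 397062 of 424588. In SS cells the pRb peak scored 340 in arrested cells, rank 27308 of 650383, and 41.7 in proliferating cells, rank 6103 of 106472. Arrested H3K27me3 covered 2.25% of the region in SS and 26.3% in WT cells, and proliferating H3K27me3 59.4% in SS and 24.3% in WT cells. Ezh2 covered 26.8% in SS and 24.1% in WT cells. In this region the proliferating SS and WT lists thus carried long peaks of both pRb and H3K27me3.

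The other regions shared by all lists were mainly H3K27me3 regions. Arrested H3K27me3 peaks covered chr5:3332069-3338891 to 30.7% in SS and 33.3% in WT cells. Proliferating ones covered it to 92.0% in SS and 84.9% in WT cells and ranked 1772 and 693 in their lists. Ezh2 covered 12.6% of it in SS and 0.733% in WT cells, while arrested SS pRb covered 22.6% and arrested WT pRb 15.2%. The arrested SS H3K27me3 list covered 19.1% of chr4:3156227-3163975 and the arrested WT list 13.9%, while the proliferating lists covered 69.8% in SS and 68.4% in WT cells. At chr16:3114364-3116723 the proliferating H3K27me3 peaks ranked 739 in SS and 661 in WT cells, although proliferating H3K27me3 covered only 1.27% in SS and 0.618% in WT cells of the first 0.5 Mb of chromosome 16.

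The longest member peaks were H3K27me3 peaks on chromosome 2. Arrested H3K27me3 covered 61.7% of the region chr2:3252463-3276404 in SS and 30.6% in WT cells, in 8 and 14 peaks. A single proliferating SS peak of 22896 bp, chr2:3252513-3275408, covered 95.6% of it, and proliferating WT peaks covered 88.5% of it with a longest peak of 16678 bp. Ezh2 covered 8.66% in SS and 3.003% in WT cells. Peaks over 10 kb next to the centromeres were found in the proliferating H3K27me3 lists alone, 9 of 461 in SS and 5 of 398 in WT cells. Their share in the flank is not given. The longest flank peaks of H3K27me3 measured 73225 bp in proliferating SS, 73394 bp in proliferating WT and 39283 bp in arrested SS cells. Peaks of this length were therefore not confined to the members or to proliferating cells.

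The leading proliferating H3K27me3 peaks by score lay in 2 short regions and 1 long one, all of which held Ezh2 peaks as well. The long one was a peak of 10032 bp in SS cells, chr13:3354211-3364242, with a -log10 q-value of 25.5 and rank 168, and of 8140 bp in WT cells, chr13:3354795-3362934, with 15.9 and rank 242. At chr6:3150682-3151763 the proliferating H3K27me3 peak ranked 5 of 168793 in SS and 11 of 143252 in WT cells, and the Ezh2 peak ranked 117 of 1184135 in SS and 3057 of 840543 in WT cells. Its -log10 q-value was 66.9 and 31.4 for proliferating SS and WT H3K27me3, and 13.9 and 5.70 for SS and WT Ezh2. The arrested H3K27me3 peaks there ranked 2298 in SS and 415862 in WT cells. pRb had a peak there in proliferating SS and arrested WT cells and none in arrested SS or proliferating WT cells. At chr9:3258524-3260007 the SS Ezh2 peak of highest score ranked 35 and the WT one 62758, and proliferating H3K27me3 peaks ranked 60 in SS and 555 in WT cells. All lists but arrested SS pRb had a peak in that region. The authors' fold enrichment at the chromosome 6 region was 4.22 and 3.31 for proliferating SS and WT H3K27me3, and 3.11 and 2.18 for SS and WT Ezh2.

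The member peak of highest score in each arrested list was short. Among the leading 3, a peak of arrested SS H3K27me3, chr8:3481941-3484057, measured 2117 bp. The highest pRb scores next to the centromeres were 697 at chr13:3181259-3181446 in arrested SS cells, rank 435, and 542 at chr8:3315723-3315860 in arrested WT cells, rank 241. In arrested H3K27me3 the leading peaks were chr19:3435007-3435211 in SS cells, rank 186, and chr6:3434948-3435122 in WT cells, rank 723; both places also held proliferating H3K27me3 peaks of SS and WT cells. The leading WT Ezh2 peak, chr2:3295921-3295977, ranked 82 and overlapped an SS Ezh2 peak.

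Scores of the member peaks as a whole were below those of the flank for arrested pRb and arrested WT H3K27me3, above them for proliferating H3K27me3, and close to them in the other lists. The median score of arrested pRb peaks was 100.2 next to the centromeres and 115 in the flank in SS cells, and 86.4 and 101 in WT cells. In proliferating cells it was 24.5 and 24.2 in SS, and 23.6 and 24.2 in WT. The median -log10 q-value of arrested H3K27me3 peaks was 1.71 next to the centromeres and 1.71 in the flank in SS, and 6.82 and 8.09 in WT cells. In proliferating cells it was 2.73 and 2.37 in SS, and 1.98 and 1.79 in WT. For Ezh2 it was 2.26 and 2.28 in SS, and 1.80 and 1.81 in WT cells. The middle 50% of arrested pRb scores ran from 62.1 to 160.0 next to the centromeres and from 77.2 to 181 in the flank in SS, and from 63.5 to 134 and from 75.3 to 147 in WT cells. Within the higher-scoring 0.5 of each list the arrested pRb density ratio was 0.814 (0.763 to 0.869) in SS and 0.827 (0.762 to 0.897) in WT cells.

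The share of members next to the centromeres that belonged to the highest 1% of their list lay below the share of all peaks in some lists and above it in others. Of arrested pRb members 20 of 2331 (0.858%, interval 0.556 to 1.32) did in SS, against 1.0% of the list, and 6 of 1461 (0.411%, 0.188 to 0.893) in WT cells, against 1.05%. The arrested WT H3K27me3 share was also low, 9 of 2287 (0.394%, 0.207 to 0.746), against 1.0%. In proliferating cells 7 of 443 SS (1.58%, 0.767 to 3.23) and 7 of 302 WT pRb members (2.32%, 1.13 to 4.71) did, against 0.999% and 1.12%. The proliferating H3K27me3 shares were 1.301% (0.598 to 2.81) in SS and 2.01% (1.02 to 3.92) in WT cells, against 0.999% and 1.0% of the lists and 0.696% and 0.660% of the flank. The Ezh2 shares were 0.896% in SS and 1.01% in WT cells, against 1.0% each. For arrested SS H3K27me3 it was 0.975%, against 1.0%.

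Long peaks were more frequent among pRb and Ezh2 members than in the flank. pRb peaks of at least 500 bp made up 5.19% of members and 2.69% of flank peaks in arrested SS cells, and 1.85% and 0.911% in arrested WT cells. In proliferating cells they made up 1.58% and 0.0392% in SS, and 0.662% and 0 in WT. For Ezh2 the shares were 1.31% and 0.714% in SS, and 0.945% and 0.340% in WT cells. For H3K27me3 they were 40.0% and 41.8% in arrested SS, 16.1% and 16.4% in arrested WT, 63.3% and 61.0% in proliferating SS, and 65.1% and 62.6% in proliferating WT cells. Chromosome 11 held 5 of the 7 long proliferating SS, both proliferating WT, 9 of the 27 arrested WT and 9 of the 121 arrested SS pRb members of that length. It held 11 of 54 and 8 of 28 such Ezh2 members in SS and WT cells.

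The genotype comparison asked whether SS lists gained or lost peaks next to the centromeres beyond their change elsewhere. For pRb and Ezh2 the counting interval of the comparison held 1 in the lists as deposited. Counting members in the first 0.5 Mb, arrested SS cells had 2331 and arrested WT cells 1461 pRb peaks, a ratio of 1.60 where the flank gave 1.58. The ratio of both, SS over WT, was 1.01 (0.942 to 1.08). For proliferating pRb it was 1.09 (0.935 to 1.27), from 443 SS and 302 WT members, but 1.36 (1.09 to 1.71) within the higher-scoring 0.5 of each list. For Ezh2 it was 0.987 (0.940 to 1.04), from 4129 SS and 2963 WT members. H3K27me3 in arrested cells differed: 513 SS members stood against 2287 WT members, a ratio of 0.224, with 0.294 in the flank, so that the near-to-flank ratio of SS was 0.763 (0.691 to 0.842) times that of WT. For proliferating H3K27me3 it was 0.875 (0.762 to 1.01), from 461 SS and 398 WT members. The arrested value rested on the first 0.5 Mb: with a limit of 4 Mb in place of 3.5 Mb it was 0.986. Within the higher-scoring 0.5 of each list it was 0.882 (0.763 to 1.02), an interval that held 1. The arrested WT H3K27me3 list is also the one that holds mostly short peaks, with a median member length of 133 bp against 387 bp in arrested SS, and its part in the difference was not tested.

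In bins of 100 kb, arrested SS H3K27me3 covered under 0.5 times the WT share in 68 of 95 bins next to the centromeres (71.6%), where the figure over all autosomal bins was 54.7%. It covered over 2 times the WT share in 2 (2.11%, over all bins 2.46%). Arrested SS pRb covered over 2 times the WT share in 45 of 95 (47.4%, over all bins 37.5%) and under 0.5 times in 0 (over all bins 0.0916%). For proliferating pRb 33 of 94 bins were over 2 times (35.1%, over all bins 32.6%) and 8 under 0.5 times (8.51%, over all bins 12.4%). For proliferating H3K27me3 23 of 75 were over (30.7%, over all bins 32.5%) and 5 under (6.67%, over all bins 4.91%). For Ezh2 18 of 95 were over (18.9%, over all bins 18.0%) and 0 under (over all bins 0.0541%). Proliferating pRb, proliferating H3K27me3 and Ezh2 thus stayed near the figure for all bins, and the arrested lists lay above it, H3K27me3 for lower and pRb for higher SS coverage. For arrested pRb this held for the count of bins past 2 times only. Its covered share, SS over WT, was 1.87 in the first 0.5 Mb and 1.85 in the flank, both close to that limit. For arrested H3K27me3 the covered share, SS over WT, was 0.511 in the first 0.5 Mb and 0.678 in the flank.

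The bins of largest change named chromosome 11 again. In arrested cells chr11:3000001-3100000 was the largest loss for H3K27me3, covered to 5.13% in SS and 20.4% in WT cells, and the largest loss for pRb, 6.34% in SS and 11.3% in WT cells. In proliferating cells it was the largest gain for pRb, 7.55% in SS and 4.24% in WT cells, and for Ezh2 it was the largest gain as well, 22.8% in SS and 16.9% in WT cells. The largest arrested pRb gain was at chr18:3000001-3100000, covered to 11.0% in SS and 2.86% in WT cells. The largest arrested H3K27me3 gain was at chr2:3200001-3300000, 23.0% in SS and 11.5% in WT cells, the bin of the long domain above. For proliferating H3K27me3 the largest gain was at chr8:3300001-3400000, 47.0% in SS and 38.2% in WT cells, and the largest loss at chr13:3400001-3500000, 8.34% in SS and 11.7% in WT cells. The largest loss of proliferating pRb was at chr4:3100001-3200000, 1.89% in SS and 2.66% in WT cells. That of Ezh2 was at chr12:3300001-3400000, 2.39% in SS and 3.23% in WT cells.

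Arrested lists held far more pRb peaks than proliferating lists next to the centromeres, by a smaller factor than in the flank in SS cells. Arrested cells had 5.26 times as many pRb peaks in the first 0.5 Mb as proliferating cells in SS and 4.84 times as many in WT, where the flank gave 6.07 and 5.16. The near-to-flank ratio, arrested over proliferating, was 0.867 (0.780 to 0.964) in SS and 0.937 (0.824 to 1.07) in WT cells. pRb covered over 2 times the proliferating share in 93 of 95 bins in SS (97.9%, over all bins 99.8%) and in 93 of 95 in WT cells (97.9%, over all bins 98.7%). It covered under 0.5 times in 0 bins in SS (over all bins 0.0125%) and in 1 in WT cells (1.05%, over all bins 0.0208%). The largest gain was chr16:3200001-3300000 in both genotypes, covered to 12.9% in arrested and 1.72% in proliferating SS cells, and to 8.50% in arrested and 0.640% in proliferating WT cells. Arrested SS cells had the lower share in the first 100 kb of chromosome 11, 6.34% against 7.55% in proliferating SS cells.

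For H3K27me3 the same ratio was 0.927 (0.814 to 1.05) in SS and 1.06 (0.952 to 1.19) in WT cells, both with intervals that held 1, and with a limit of 4 Mb it was 1.03 in SS and 0.965 in WT cells. Arrested SS cells covered 0.489 times and arrested WT cells 1.13 times the length that proliferating cells covered in the first 0.5 Mb, where the flank gave 0.560 and 1.04. In SS cells 38 of 90 bins were under 0.5 times (42.2%, over all bins 31.3%) and 24 over 2 times (26.7%, over all bins 26.8%). In WT cells 9 of 95 were under (9.47%, over all bins 15.9%) and 54 over (56.8%, over all bins 54.9%). The largest loss in SS cells was again chr11:3000001-3100000, covered to 5.13% in arrested and 45.8% in proliferating cells. In WT cells it was chr8:3300001-3400000, covered to 14.6% in arrested and 38.2% in proliferating cells.

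The last question was whether both genotypes had their members in the same places. Among proliferating H3K27me3 members 54.0% of SS peaks (49.4 to 58.5) shared at least 1 bp with a WT peak, and 67.6% of WT peaks (62.8 to 72.0) with an SS peak, against 45.4% and 64.2% in the flank. Among arrested H3K27me3 members 38.4% of SS and 9.97% of WT peaks did, against 35.6% and 12.3% in the flank. For Ezh2 9.61% of SS (8.75 to 10.6) and 13.4% of WT members (12.2 to 14.7) did, against 8.06% and 11.4%. For arrested pRb the shares were 7.98% of SS and 12.9% of WT members, against 6.97% and 11.0%. For proliferating pRb they were 2.48% (1.39 to 4.39) of SS and 3.64% (2.05 to 6.40) of WT members, 11 peaks in each, against 1.45% and 1.95% in the flank. With overlap of at least 1 bp, the only setting with a flank value here, member shares were above the flank in all cases but arrested WT H3K27me3. The member interval held the flank value for arrested SS pRb, proliferating SS pRb, arrested SS H3K27me3 and proliferating WT H3K27me3.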

How the data were processed

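The files were 10 peak lists in mm9 coordinates, 1 per immunoprecipitated library, called per library and not on pooled samples. Bowtie2, MACS2, HOMER and bedtools are named in the submitters' processing notes, without roles, versions, thresholds or the control used. In the 4 pRb lists, as deposited, each peak has a score whose scale the authors' files do not name. The deposited H3K27me3 and Ezh2 lists hold, in the authors' column layout, a fold enrichment, a -log10 p-value and a -log10 q-value per peak, and a score that is 10 times that q-value term without its decimals in 3220833 of 3220912 peaks. These values are the authors' own and were used only to rank or describe peaks within a list.

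Coordinates were turned to 1-based. Peaks were assigned to windows by their start and clipped to the window for covered length. A density ratio is peaks per Mb in the first 0.5 Mb over peaks per Mb in the flank, with a 95% Wilson interval on the share of peaks. Ratios of 2 density ratios have intervals from the 4 counts on a log scale. Bins of 100 kb were counted where either library covered them. Overlap needed 1 bp. Named regions were the leading 3 member peaks by score in each list, the merged regions in most lists, the extreme chromosomes and the bins of largest change per comparison; the chromosome 6 and 9 regions follow from the leading peaks, and the first 100 kb of chromosome 11 from the bins of largest change. Chromosomes 7, 8 and 16, and the chromosome 2 domain as the longest region, were singled out after their values were seen. Values were computed with pandas 2.3.3 and numpy 2.4.6 under Python 3.11.15, intervals with scipy 1.17.1 and figures with matplotlib 3.10.9. The computations were tested on simulated peaks. Read depth is unknown. The members and lists were chosen with earlier results of these data known.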

Additional observations from a re-analysis of the deposited data

Results flagged for a closer look

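Several H3K27me3 contrasts next to the centromeres ran in opposite directions in different groups; with 1 library per group the differences were not tested. The covered share of the first 0.5 Mb, SS over WT, was 0.511 in arrested and 1.18 in proliferating cells. The flank had the same opposite directions, at 0.678 and 1.25. Relative to the flank both SS over WT values were below 1, at 0.754 in arrested and 0.937 in proliferating cells. The covered share of the first 0.5 Mb, arrested over proliferating, was 0.489 in SS and 1.13 in WT cells, where the flank gave 0.560 and 1.04. Relative to the flank, the covered share, arrested over proliferating, was 0.873 in SS and 1.09 in WT cells. The corresponding ratio of peak density was 0.927 in SS and 1.06 in WT cells, with intervals of 0.814 to 1.05 and 0.952 to 1.19 that both hold 1. This last contrast did not keep its direction. With a limit of 4 Mb it was 1.03 in SS and 0.965 in WT cells, against a flank of 10 to 20 Mb 0.904 in SS and 0.955 in WT cells, and within the higher-scoring 0.5 of each list 0.758 in SS and 0.778 in WT cells. Without chromosome 11 it was 0.986 (0.860 to 1.13) in SS and 1.13 (1.01 to 1.28) in WT cells.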

How the results depend on the processing

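Of 124 alternative values over 24 results, 96 stayed within the counting interval of the value as deposited, 26 moved outside it, and 2 whose interval had excluded 1 turned to its other side. A further 10 values whose interval had held 1 also crossed it: the higher-scoring 0.5 gave 0.872 for the proliferating WT pRb density, 0.985 for arrested pRb, SS over WT, and 0.778 for WT H3K27me3, arrested over proliferating. The 4 Mb limit gave 1.03 for SS and 0.965 for WT H3K27me3, arrested over proliferating, the 10 to 20 Mb flank 0.955 for WT, and merging within 1 kb 0.990 for arrested pRb and 1.02 for Ezh2, SS over WT. The remaining crossings, arrested pRb and Ezh2 against the 10 to 20 Mb flank, came to 1.00. The cause was not tested. With the higher-scoring 0.5 of each list, the near-to-flank density ratio was 0.814 in arrested SS, 0.827 in arrested WT and 0.872 in proliferating WT pRb, 0.826 in arrested WT and 0.962 in proliferating SS H3K27me3, and 1.06, a reversal, in proliferating WT H3K27me3. The SS over WT ratio was then 1.36 (1.09 to 1.71) for proliferating pRb and 0.882 (0.763 to 1.02) for arrested H3K27me3, and arrested over proliferating 0.684 for SS pRb, 0.758 for SS and 0.778 for WT H3K27me3. The overlap of SS with WT members became 2.30% for arrested and 0.431% for proliferating pRb, 29.6% for arrested and 49.2% for proliferating H3K27me3, and 6.47% for Ezh2. With the limit at 4 Mb, the density ratio was 0.965 in arrested SS, 0.937 in proliferating SS and 1.01, a reversal, in proliferating WT H3K27me3, and SS over WT for arrested H3K27me3 was 0.986. Against a flank of 10 to 20 Mb it was 0.864 in proliferating SS and 0.997 in proliferating WT H3K27me3, and 0.895 in SS and 0.894 in WT Ezh2. With 50% reciprocal overlap the shares were 2.62% for arrested pRb, 7.21% for arrested and 24.5% for proliferating H3K27me3, and 2.11% for Ezh2. Flank shares are not given for the overlap at 50% or within the higher-scoring 0.5. These lower shares therefore cannot be read as particular to the members. Merging peaks within 1 kb, or leaving out chromosome 11 or 14, the last 2 chosen after seeing the data, left all 19 density results within the intervals of the values as deposited. No paired analysis was possible because each group has 1 library. Without replicates or read depth, differences between libraries cannot be told apart from differences between their peak calls.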
